A study of Mus musculus with 12 samples.

Results

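The 10 genes described here make, move, break down or receive the signals of prostaglandins and leukotrienes, and they were chosen by symbol, with earlier results of these arrays known. They are Hpgd and Slco2a1 (breakdown and uptake), Ptgs1, Ptgs2, Ptges, Ptgis, Ptgds and Tbxas1 (synthesis), Ptger4 (a receptor) and Alox5 (leukotriene synthesis). Of these 10, 9 had a probe set with a single gene symbol, among 18193 genes represented in the series. Ptgs1, the constitutive cyclooxygenase, was not among the named probe sets and was not analysed here. Where a gene had several probe sets, the brightest one on average represented it. The samples were 6 lung tumours that had arisen spontaneously and 6 normal lungs, with 1 array each. All came from B6C3F1 mice of a National Toxicology Program bioassay that were 2 years old and had received no test chemical. B6C3F1 is the hybrid of C57BL/6 and C3H mice, and such tumours arise in it without any chemical exposure. The labels give neither sex, nor tumour cell content, nor whether samples are separate animals, so the errors measure the spread between these samples, which may be technical in part.

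Signal is a linear intensity per probe set, scaled by the authors to one trimmed mean on every array. Differences subtract the normal mean from the tumour mean after transformation to log2(signal + 16), and their standard errors are from limma. The added 16 shrinks the differences of dim genes. Median signals per array ranged from 126 to 150 in tumours and from 151 to 164 in normal lungs. Type II cell markers were bright on every array, with summed signals of 91441 to 212725 in tumours and 102615 to 144587 in normal lungs. Tumours 4 and 6 and all 6 normal lungs carried Xist, at 7877 or more, while tumours 1, 2, 3 and 5 carried the Y-linked Eif2s3y, at 740 or more. In normal lungs Eif2s3y was at most 27.4. By these genes there was no male normal lung, so sex is partly confounded with the tumour contrast. Eif2s3y as a covariate, used below, stands for sex and varies mainly among the tumours. Normal lung 1 stood apart in neutrophil genes, whose summed signal was 196210, against 3588 to 23444 in the other normal lungs. Normal lungs 2 and 4 stood apart in liver genes, whose summed signals there were 23067 and 26938, against 271 to 3696 in the other normal lungs. The number of arrays, 6 per group, limits the precision.

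Prostaglandins are short-lived lipid signals. Phospholipases free arachidonic acid from membranes, the cyclooxygenases turn it into prostaglandin H2, and a separate synthase makes each end product, such as prostaglandin E2, prostacyclin or thromboxane. The lung is known for clearing prostaglandins from the blood: the transporter encoded by Slco2a1 takes them up and the dehydrogenase encoded by Hpgd inactivates them. The leukotriene branch starts with arachidonate lipoxygenase, encoded by Alox5, and is strongest in neutrophils, macrophages and mast cells.

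The promoters of 4 genes are shown because they frame the results. Hpgd and Slco2a1 were lower in every tumour on the authors' scaling. Ptgs2 was high in tumours 2 and 3 and below the normal range in the other 4, and Ptges was highest in tumours 2 and 6. The sequences are from RefSeq (build GRCm38.p6), which held a promoter for 9 of the 10 genes; Ptgis had none. Each runs 5′ to 3′ on the gene's strand from 250 bases before the start site to 50 after it. The positions are chr8:56294302-56294601 (plus strand) for Hpgd, chr9:103008237-103008536 (plus strand) for Slco2a1, chr1:150099781-150100080 (plus strand) for Ptgs2 and chr2:30903248-30903547 (minus strand) for Ptges. Capitals mark exact matches, on either strand, to any of 7 motifs.
Hpgd: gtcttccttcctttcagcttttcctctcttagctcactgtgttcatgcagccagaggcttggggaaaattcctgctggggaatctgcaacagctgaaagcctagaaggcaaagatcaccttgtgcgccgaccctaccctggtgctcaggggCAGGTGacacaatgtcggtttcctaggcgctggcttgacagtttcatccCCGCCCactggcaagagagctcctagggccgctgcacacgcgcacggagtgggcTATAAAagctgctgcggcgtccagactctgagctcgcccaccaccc
Slco2a1: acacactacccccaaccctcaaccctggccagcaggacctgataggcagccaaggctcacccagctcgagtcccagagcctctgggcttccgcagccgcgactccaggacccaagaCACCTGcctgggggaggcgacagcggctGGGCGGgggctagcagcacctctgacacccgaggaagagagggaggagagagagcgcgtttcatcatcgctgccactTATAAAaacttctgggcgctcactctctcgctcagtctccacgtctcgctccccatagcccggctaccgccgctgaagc
Ptgs2: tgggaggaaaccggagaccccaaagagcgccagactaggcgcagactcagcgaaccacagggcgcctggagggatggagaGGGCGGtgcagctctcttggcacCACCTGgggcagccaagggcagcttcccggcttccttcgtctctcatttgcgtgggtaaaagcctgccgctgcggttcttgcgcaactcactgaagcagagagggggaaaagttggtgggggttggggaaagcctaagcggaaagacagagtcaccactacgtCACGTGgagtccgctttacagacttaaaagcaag
Ptges: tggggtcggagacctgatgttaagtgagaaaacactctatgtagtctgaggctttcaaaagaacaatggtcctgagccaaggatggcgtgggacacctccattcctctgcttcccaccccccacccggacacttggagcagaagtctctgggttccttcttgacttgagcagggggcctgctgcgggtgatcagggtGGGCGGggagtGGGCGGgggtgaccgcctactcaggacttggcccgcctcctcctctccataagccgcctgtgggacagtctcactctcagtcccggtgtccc
The motifs searched were the TATA box TATAAA, the CCAAT box CCAAT, the GC box GGGCGG, the Snail-type E-box CAGGTG, the Myc-type E-box CACGTG, the AP-1 site TGACTCA and the full cAMP response element TGACGTCA. No matches overlapped in these 4 promoters. TATAAA was present in the Hpgd and Slco2a1 promoters and in 13.6% of 32851 RefSeq promoters of this length. Counted from the start site, with bases before it negative, its first base was at -29 in Slco2a1 and at 5 in Hpgd. CAGGTG, the E-box that Snail-type repressors can bind, was present in the Hpgd, Slco2a1 and Ptgs2 promoters and in 20.2% of all. GGGCGG, the GC box, was present in all 4 and in 35.7% of all. CACGTG, the other E-box, was found in the Ptgs2 promoter and in 7.15% of all. The CCAAT box, the AP-1 site and the full response element had no match in the 4 windows and were in 37.4%, 5.2% and 1.79% of all. These are matches of letters and not sites of binding.

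Hpgd, which oxidises and so inactivates prostaglandins, was far below the normal range in all 6 tumours. Its signal had a lowest value of 179, a median of 416 and a highest value of 2936 in tumours, against a lowest value of 14245, a median of 16204 and a highest value of 21788 in normal lungs. The groups did not overlap, and tumours differed from one another far more than normal lungs did: the highest tumour was 16.4 times the lowest, where the highest normal lung was 1.53 times the lowest. Tumours 4 and 6 were the highest, at 2936 and 1230, and tumours 1, 2, 3 and 5 lay between 179 and 527. The mean was 906 ± 1066 in tumours and 17482 ± 2991 in normal lungs (SD, n = 6 each), a difference of -4.92 ± 0.51. Tumours 4 and 6 are also the pair with Xist, and with the signal of Eif2s3y as a covariate the difference was -3.36 ± 0.28. A second, dimmer Hpgd probe set showed the same separation, with means of 20.02 in tumours and 455 in normal lungs. On it tumours 1, 2 and 5 lay under the added 16.

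Slco2a1, the prostaglandin transporter that brings prostaglandins into the cell, was also lower in all tumours, by a smaller amount. Its signal was 2288 at lowest, 3642 at the median and 5892 at highest in tumours, against 6172, 7144 and 8359 in normal lungs. The highest tumour, tumour 6, lay just under the lowest normal lung, normal lung 6. On the authors' scaling the groups were thus close without overlapping. That gap was small beside the gap between the median signals of these arrays, 132 in tumour 6 and 163 in normal lung 6. The separation therefore depends on the scaling. With median centring the Slco2a1 difference was -0.82 ± 0.21. The mean was 3714 ± 1297 in tumours and 7165 ± 878 in normal lungs (SD, n = 6 each), a difference of -1.01 ± 0.19. The other 3 Slco2a1 probe sets gave differences of -1.25, -1.46 and -0.72, and only on the last did a tumour, tumour 6, enter the normal range. With Eif2s3y as a covariate the difference was -0.58 ± 0.20, and with tumours 4 and 6 alone it was -0.52 ± 0.18.

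The order of tumours was not the same for both genes on their brightest probe sets. Tumour 6 had the highest Slco2a1 and the second highest Hpgd signal. Tumour 1 had the lowest Slco2a1 signal, whereas tumour 3 had the lowest Hpgd signal.

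**Figure D1:**
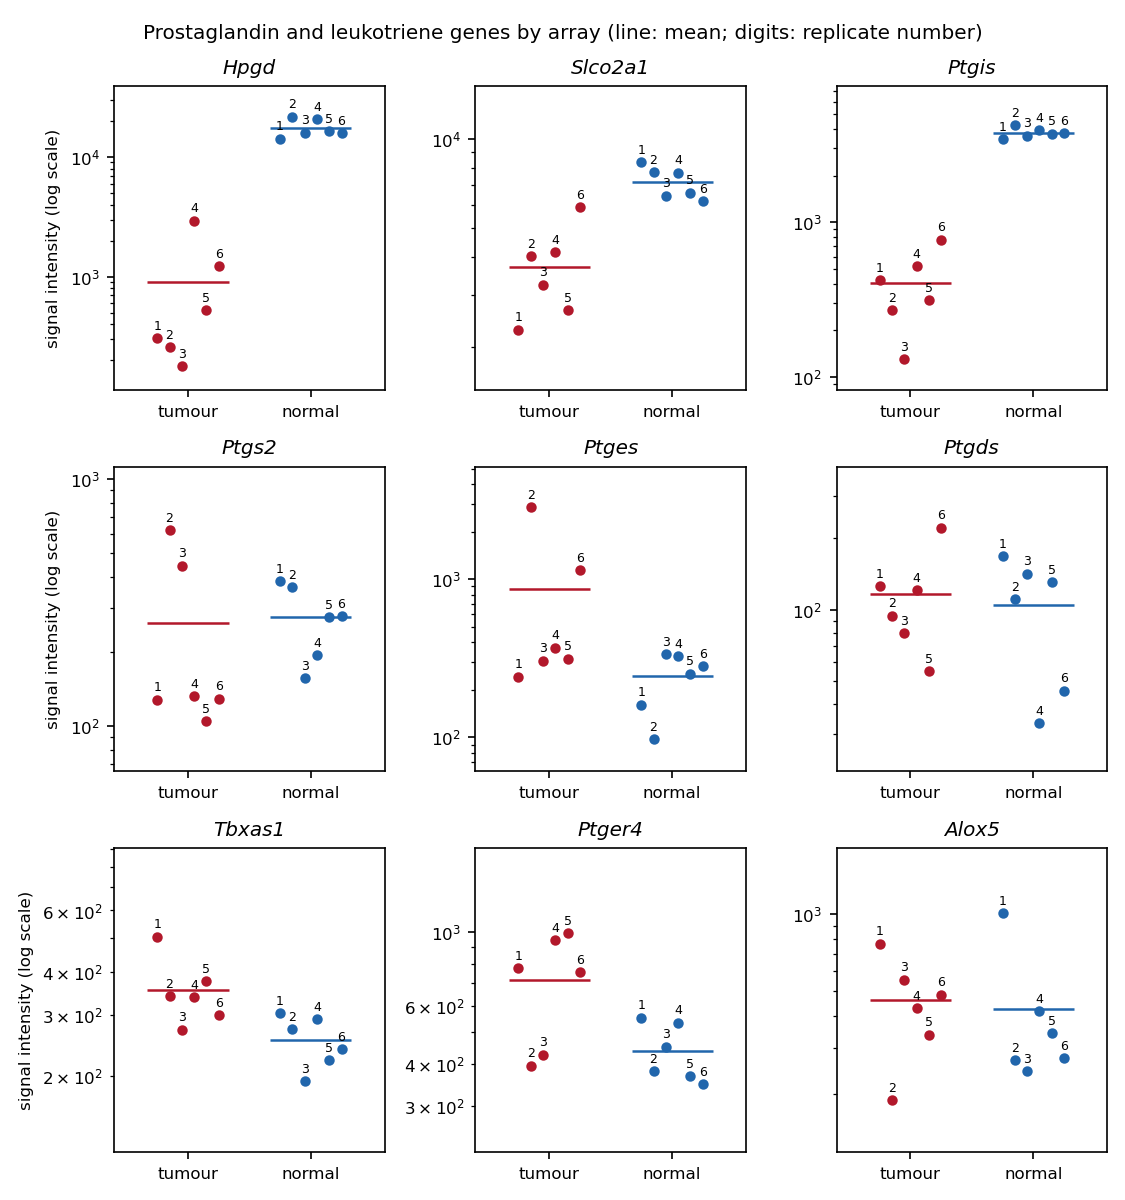
Signal intensity (log scale) of the 9 measured genes on each array, tumours at left and normal lungs at right; points are arrays with their replicate number and lines are group means. Hpgd, Slco2a1 and Ptgis are the genes whose groups do not overlap, and Ptges stands out in tumours 2 and 6.

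Other genes that carry or break down prostaglandins changed in both directions. Of 6 such genes outside the 10, 2 rose, 1 fell and 3 did not pass the threshold, an adjusted p of 0.05 over all 45037 probe sets by limma with Benjamini-Hochberg adjustment. The median difference of the 6 was 0.35, against -0.08 over all 18193 genes. Over all genes 12.2% passed upwards and 17.5% downwards.

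Ptgr1, the reductase that acts on the product of Hpgd and also inactivates leukotriene B4, rose in all 6 tumours. Its signal was 3788 to 8559 in tumours, with a median of 5235, against 2083 to 2702 in normal lungs, with a median of 2299. The difference was 1.21 ± 0.18 (adjusted p = 1.88e-04, limma), and no tumour was as low as a normal lung. Abcc4, an exporter of prostaglandins and other anions, rose by 1.84 ± 0.35 (adjusted p = 0.00106, limma). Abcc4 was between 1406 and 3612 in 5 tumours and 516 in tumour 5, against 385 to 521 in normal lungs. Tumour 5 was thus inside the normal range for Abcc4.

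Slco3a1, an anion transporter that accepts prostaglandins, fell by 2.55 on the log2 scale (SE 0.22, adjusted p = 1.26e-06, limma). It was 199 to 605 in tumours and 1989 to 3191 in normal lungs, and both of its other probe sets also fell (differences -2.52 and -2.17). Ptgr2 (0.08 ± 0.18), Cbr1, a carbonyl reductase (0.41 ± 0.22), and Slco4a1 (0.29 ± 0.41) did not pass the threshold, with adjusted p of 0.815, 0.2 and 0.672 (limma).

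Among the synthesis genes, Ptgis was far lower in tumours and the other 4 measured genes differed by less, in both directions. Ptgis makes prostacyclin, the vasodilator of vessel walls. Its signal was 131 at lowest, 368 at the median and 769 at highest in tumours, against 3442, 3743 and 4219 in normal lungs. Every tumour was below every normal lung, and normal lungs were within 1.23 times of each other. The mean was 404 ± 223 in tumours and 3783 ± 268 in normal lungs (SD, n = 6 each), a difference of -3.36 ± 0.29. With Eif2s3y as a covariate the difference was -2.68 ± 0.29. Tumour 6 was the highest and tumour 3 the lowest tumour for Ptgis.

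Ptgs2, the inducible cyclooxygenase, was either above or below the normal range in every tumour. Tumours 2 and 3 had signals of 620 and 446, above the highest normal lung at 385. Tumours 1, 4, 5 and 6 had signals of 128, 132, 105 and 129, below the lowest normal lung at 156. No tumour fell within the normal range, and the mean difference of -0.35 ± 0.40 describes neither kind of tumour. The mean was 259.9 ± 219 in tumours and 275 ± 90.3 in normal lungs (SD, n = 6 each). On its other probe set tumours 2 and 3 were again the highest arrays, at 365 and 369, against a highest normal lung of 264, but tumour 6, at 173, lay within the normal range.

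Ptges, the inducible synthase of prostaglandin E2, was highest in tumours 2 and 6. Their signals were 2847 and 1138. The other 4 tumours were between 242 and 370, beside 97.5 to 336 in normal lungs, and of these 4 only tumour 4 was above every normal lung. The mean of all tumours was 869 ± 1025, against 243 ± 95.03 in normal lungs (SD, n = 6 each). The difference of 1.25 ± 0.52 rested on those tumours: it was 0.78 without tumour 2 and 0.41 ± 0.30 without tumours 2 and 6. Both other Ptges probe sets had the same highest arrays, with 1411 and 1532 in tumour 2 and 349 and 582 in tumour 6. Tumour 2 was the only tumour above all normal lungs for both Ptgs2 and Ptges.

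Tbxas1, the thromboxane synthase of platelets and macrophages, and Ptgds, a prostaglandin D2 synthase, differed little. Tbxas1 was 272 at lowest, 339 at the median and 504 at highest in tumours, against 193, 256 and 305 in normal lungs. In 4 tumours (1, 2, 4 and 5) it lay above every normal lung, and the difference was 0.45 ± 0.17. Ptgds was 55.07 to 221 in tumours and 33.4 to 168 in normal lungs, a difference of 0.18 ± 0.37. It was the 1 gene of the 9 whose brighter group mean was under 162, the median of all probe sets, and its other probe set differed in the opposite direction (-0.80 ± 0.39).

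Of the synthesis genes outside the 10, 4 were measured and 0 passed in either direction (limma, adjusted p at most 0.05). Over all genes 29.6% passed. With only 4 genes this count says little. The 4 were Hpgds, the prostaglandin D2 synthase of mast cells and macrophages (0.91 ± 0.34, adjusted p = 0.0688, limma), Akr1c18 (1.13 ± 0.59, adjusted p = 0.189, limma), Ptges2 (0.21 ± 0.15) and Prxl2b (-0.24 ± 0.22). Their median difference was 0.56.

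Averaged by role, the breakdown and uptake mean lay well under the normal range in every tumour. The synthesis mean, which Ptgis dominated, lay below the normal range in 4 tumours, above it in tumour 2 and within it in tumour 6. The mean difference over Hpgd and Slco2a1 was -2.96, with tumours between -3.80 and -1.66 and normal lungs between -0.17 and 0.23 around the normal mean. The mean difference over the 5 measured synthesis genes was -0.37, with tumours between -0.87 and 0.29 and normal lungs between -0.16 and 0.19. Tumours 2 and 6 were the pair whose synthesis mean was above 0. Both means depend on a single gene, Hpgd in the first and Ptgis in the second, whose differences of -4.92 and -3.36 were the largest of the 9. The other 4 measured synthesis genes differed by -0.35 (Ptgs2), 1.25 (Ptges), 0.18 (Ptgds) and 0.45 (Tbxas1). The negative sign of the synthesis mean thus rests on Ptgis and does not describe the role. The synthesis mean also lacks Ptgs1.

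Of the 9 genes, 3 passed the threshold of adjusted p 0.05, all lower in tumours (Hpgd, Slco2a1 and Ptgis), and the same 3 had groups that did not overlap. Over all genes 29.6% passed, 12.2% upwards and 17.5% downwards, and 18.5% had groups that did not overlap in either direction. Overlap was counted on the authors' scaling only, and for Slco2a1 the gap was narrow. Because the genes were chosen from this comparison, these counts describe them and test nothing. The median difference of the 9 was 0.18, and over all genes it was -0.08.

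**Figure D2:**
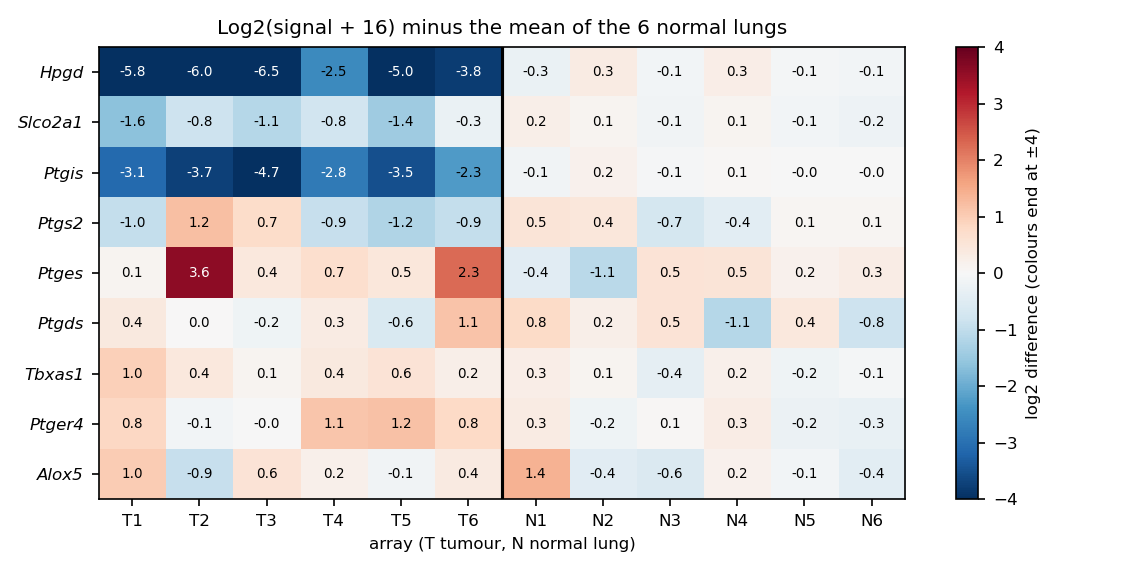
Log2(signal + 16) of each measured gene on each array minus the mean of the 6 normal lungs, with tumours (T1 to T6) left of normal lungs (N1 to N6) and colours that end at ±4. Hpgd and Ptgis are negative in all tumours, Ptgs2 is positive in T2 and T3, and Ptges exceeds 2 in T2 and T6.

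Of 9 measured genes that free arachidonic acid, 2 rose, 1 fell and 6 did not pass, with a median difference of -0.13, where 12.2% of all genes rose and 17.5% fell. Pla2g4a, the cytosolic phospholipase that supplies the cyclooxygenases, was 724 ± 208 in tumours and 673 ± 61.4 in normal lungs (SD, n = 6 each), a difference of 0.06 ± 0.17 (adjusted p = 0.852, limma). Pla2g6, a calcium-independent phospholipase, rose by 1.15 ± 0.20 (adjusted p = 5.67e-04, limma), with 729 to 1792 in tumours and 324 to 565 in normal lungs. Its other 2 probe sets did not pass (0.98 and -0.21). Pla2g1b, a secreted phospholipase best known from pancreas, rose by 1.74 ± 0.39 (adjusted p = 0.00369, limma). In tumour 2, at 389, it was within the normal range of 178 to 430. Its probe set is of a type that can bind related transcripts. Another of its 4 probe sets rose by 2.20, and the other two, both dim, did not pass.

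Mgll, which releases arachidonic acid from an endocannabinoid, fell by 1.27 on the log2 scale (SE 0.33, adjusted p = 0.00947, limma). Tumour 1, at 3247, was above every normal lung, while the other 5 tumours were between 553 and 1611, below all normal lungs, which were between 2293 and 3052.

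Receptors for prostaglandin E2 differed in opposite directions. Ptger4, the EP4 receptor for prostaglandin E2, was 396 at lowest, 766 at the median and 989 at highest in tumours, against 348, 417 and 552 in normal lungs. In 4 tumours (1, 4, 5 and 6) it was above every normal lung, and tumours 2 and 3 lay within the normal range. The mean was 715 ± 252 in tumours and 439 ± 87.4 in normal lungs (SD, n = 6 each), a difference of 0.62 ± 0.23. Tumours 2 and 3, the lowest for Ptger4 on this probe set, were the highest for Ptgs2. The dimmer Ptger4 probe set differed by 1.09 ± 0.43. On it tumour 3, at 101, was above tumours 1 and 6, at 82.1 and 81.4.

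Of the 9 other receptor genes, 1 rose, 3 fell and 5 did not pass, with a median difference of -0.29, where 12.2% of all genes rose and 17.5% fell. Ptger3, the EP3 receptor for prostaglandin E2, rose by 2.30 ± 0.62 (adjusted p = 0.0133, limma). It was 733, 946, 383 and 1212 in tumours 1, 3, 4 and 5, but 50.7 and 123 in tumours 2 and 6, against 19.3 to 108 in normal lungs. Tumours 2 and 6, which were high for Ptges, were thus at or near the normal range for Ptger3. The same pair had type II marker means of 13.5 and 13.2 (log2) (tumours 1, 3, 4 and 5 14.35 to 14.7, normal lungs 13.3 to 13.6). The part of type II cells in the Ptger3 result was not tested. The Ptger3 call was lost with normal lungs 2 and 4 left out (adjusted p = 0.0561, limma), with Eif2s3y as a covariate (adjusted p = 0.162, limma) and with tumours 4 and 6 alone (adjusted p = 0.0631, limma).

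Ptger2, the EP2 receptor, fell by 1.26 on the log2 scale (SE 0.22, adjusted p = 5.83e-04, limma). It was 191 to 518 in tumours and 560 to 1073 in normal lungs, without overlap. Ptgfr, the receptor for prostaglandin F2, fell by 1.78 on the log2 scale (SE 0.27, adjusted p = 1.47e-04, limma), with 19.7 to 89.5 in tumours and 172 to 291 in normal lungs. The other 4 Ptgfr probe sets included 3 that also fell. Tbxa2r, the thromboxane receptor of platelets and smooth muscle, fell by 1.06 on the log2 scale (SE 0.27, adjusted p = 0.00962, limma), with tumour 2, at 221, inside the normal range of 172 to 319. That call was lost with normal lungs 2 and 4 left out (adjusted p = 0.0608, limma) and with Eif2s3y as a covariate (adjusted p = 0.057, limma). Ptgir, the prostacyclin receptor, was 177 ± 71.0 in tumours and 179 ± 48.3 in normal lungs (SD, n = 6 each), a difference of -0.07 ± 0.27 (adjusted p = 0.893, limma), beside the low Ptgis of the same tumours.

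**Figure D3:**
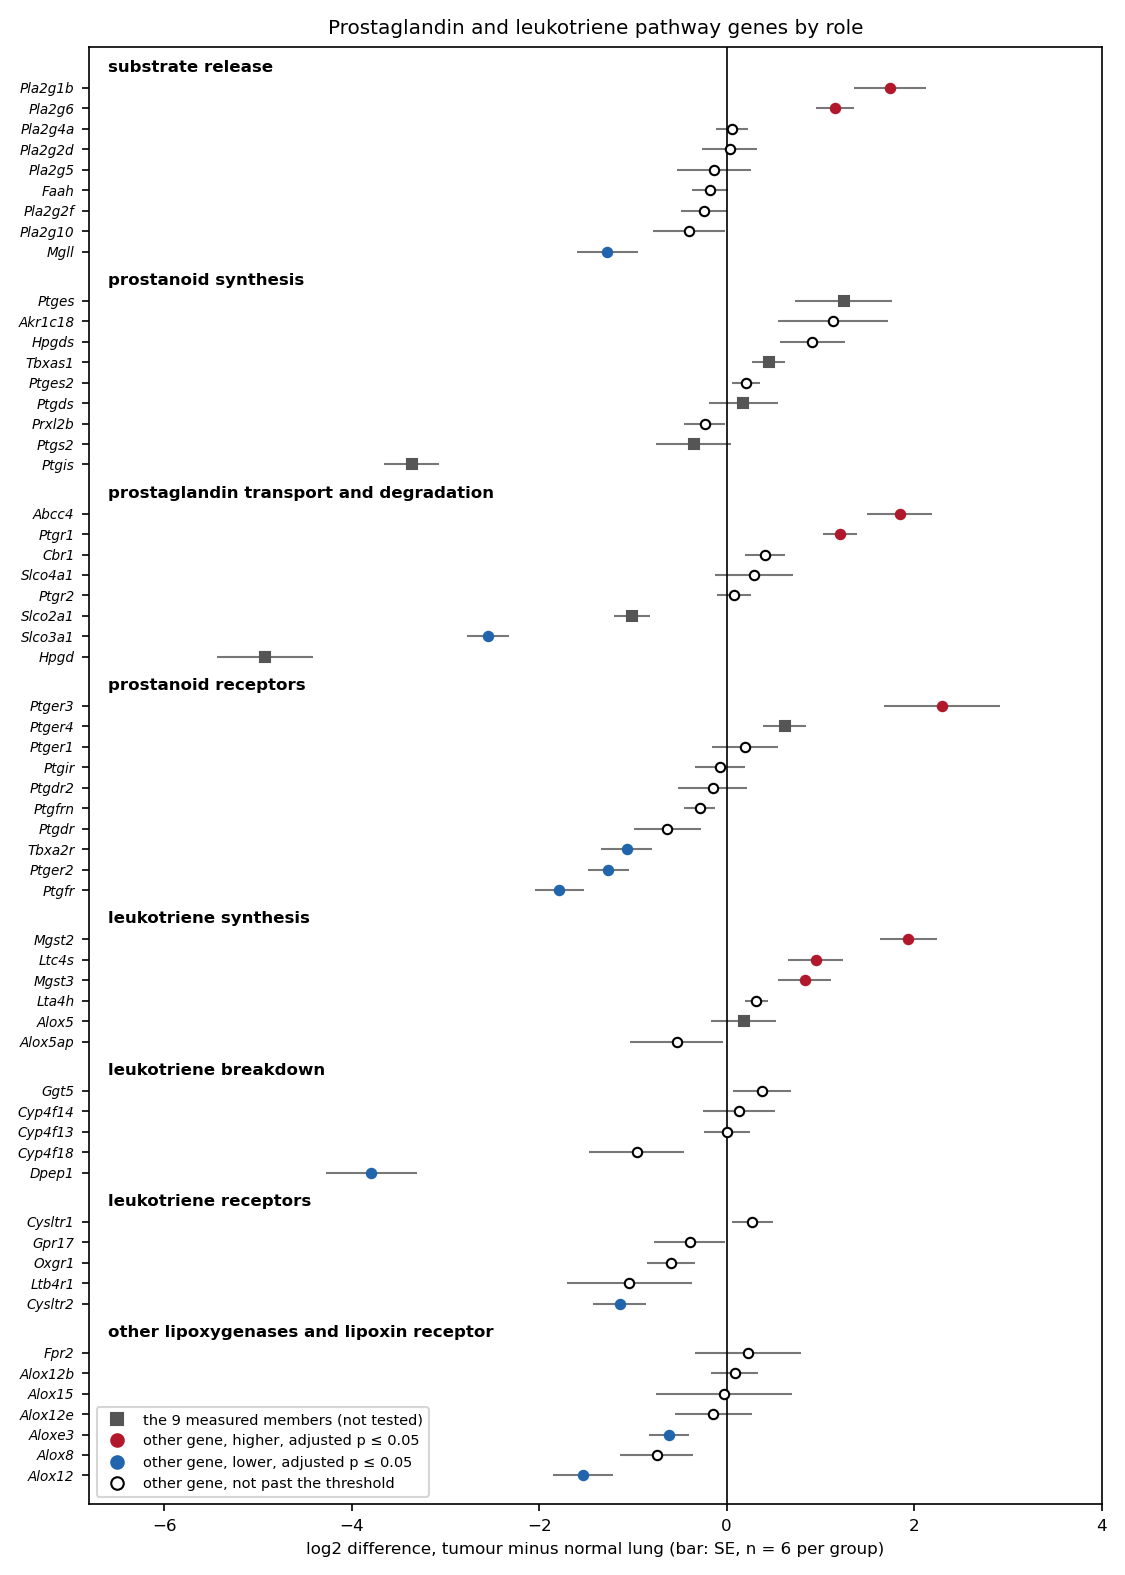
Log2 difference, tumour minus normal lung, of 59 pathway genes grouped by role; bars are standard errors (n = 6 per group), squares are the 9 measured genes described without a test, and filled circles are other genes past the threshold. Hpgd, Dpep1 and Ptgis lie farthest to the left, and Ptger3, Mgst2 and Abcc4 farthest to the right.

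Alox5, the lipoxygenase that starts leukotriene synthesis, overlapped between the groups. Its signal was 189 at lowest, 458 at the median and 768 at highest in tumours, against 245, 309 and 1007 in normal lungs. Normal lung 1 held the highest value, followed by tumour 1, and tumour 2 held the lowest. The difference was 0.18 ± 0.35, and without normal lung 1 it was 0.46 ± 0.29. Normal lung 1 is the array with the high neutrophil genes, and its part in the Alox5 level was not tested.

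Alox5ap, the protein that presents arachidonic acid to the lipoxygenase, also peaked in normal lung 1. It was 16482 there and 1332 to 2350 in the other normal lungs, against 941 to 2793 in tumours (difference -0.53 ± 0.50, adjusted p = 0.495, limma). Ltb4r1, the main receptor for leukotriene B4, was 1129 in normal lung 1 and 18.3 to 202 in the others, against 28.8 to 145 in tumours (difference -1.04 ± 0.67, adjusted p = 0.299, limma). Fpr2, a receptor of lipoxins and formyl peptides, was 6768 in normal lung 1 and 535 to 972 in the others, against 551 to 3466 in tumours. These 3 genes, which neutrophils express, did not pass the threshold.

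Of 5 leukotriene synthesis genes beside Alox5, 3 rose and 0 fell, with a median difference of 0.83, where 12.2% of all genes rose and 17.5% fell. The 3 differed from one another in which tumours were high, and 2 of the 3 calls were lost under some alternatives. Mgst2, a microsomal transferase able in humans to make leukotriene C4, rose by 1.94 ± 0.30 (adjusted p = 2.31e-04, limma), with 747 to 3707 in tumours and 406 to 703 in normal lungs. Ltc4s, the dedicated leukotriene C4 synthase, rose by 0.95 ± 0.29 (adjusted p = 0.027, limma), with tumour 1, at 1208, highest and 3 tumours above every normal lung. The Ltc4s call was lost without normal lung 1, 3 or 5 (adjusted p of 0.0588, 0.0567 and 0.0631, limma), with Eif2s3y as a covariate and with tumours 4 and 6 alone (adjusted p of 0.223 and 0.0948, limma). Mgst3, a related transferase, rose by 0.83 ± 0.29 (adjusted p = 0.0471, limma), a call lost in 19 of 27 alternatives. Its difference was 0.35 without tumours 2 and 6, which had the highest signals, 3811 and 5961. Tumours 3 and 4, at 1422 and 1477, were within the normal range of 1231 to 1558. Lta4h, which makes leukotriene B4, was 2481 ± 318 in tumours and 1993 ± 303 in normal lungs (SD, n = 6 each), a difference of 0.32 ± 0.12 (adjusted p = 0.0698, limma).

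Dpep1, a dipeptidase that converts leukotriene D4 into leukotriene E4, fell by 3.79 on the log2 scale (SE 0.49, adjusted p = 3.91e-05, limma). It was 18.9 to 588 in tumours and 1954 to 2682 in normal lungs, and its other probe set fell by 4.41 on the log2 scale. Tumour 3 was lowest and tumour 4 highest, as for the brighter Hpgd probe set. Dpep1 was the 1 of 5 measured genes of leukotriene breakdown to pass (20%), where 17.5% of all genes fell. Cysltr2, a receptor for these cysteinyl leukotrienes, fell by 1.14 on the log2 scale (SE 0.28, adjusted p = 0.00752, limma) and was dim throughout, at 6.48 to 36.2 in tumours and 33.2 to 83.7 in normal lungs. Cysltr1, the other cysteinyl receptor, did not pass (0.27 ± 0.22, adjusted p = 0.413, limma). Of 5 measured leukotriene receptor genes, 1 fell (20%) and 4 did not pass, which is near the share of all genes that fell, 17.5%.

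Among 7 genes of other lipoxygenases and the lipoxin receptor, 2 fell. Alox12, the lipoxygenase of platelets, fell by 1.54 on the log2 scale (SE 0.32, adjusted p = 0.0024, limma), with 44.3 to 173 in tumours and 192 to 606 in normal lungs. The Alox12 call was lost with Eif2s3y as a covariate (adjusted p = 0.0685, limma). Aloxe3, an epidermal lipoxygenase, fell by 0.61 on the log2 scale (SE 0.21, adjusted p = 0.0481, limma), a call lost in 14 of 27 alternatives. Over all the lists, 50 genes outside the 10 were measured of 55 fixed. Of these, 8 rose (16%) and 9 fell (18%), beside 12.2% and 17.5% of all genes, and the median difference was -0.05.

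**Figure D4:**
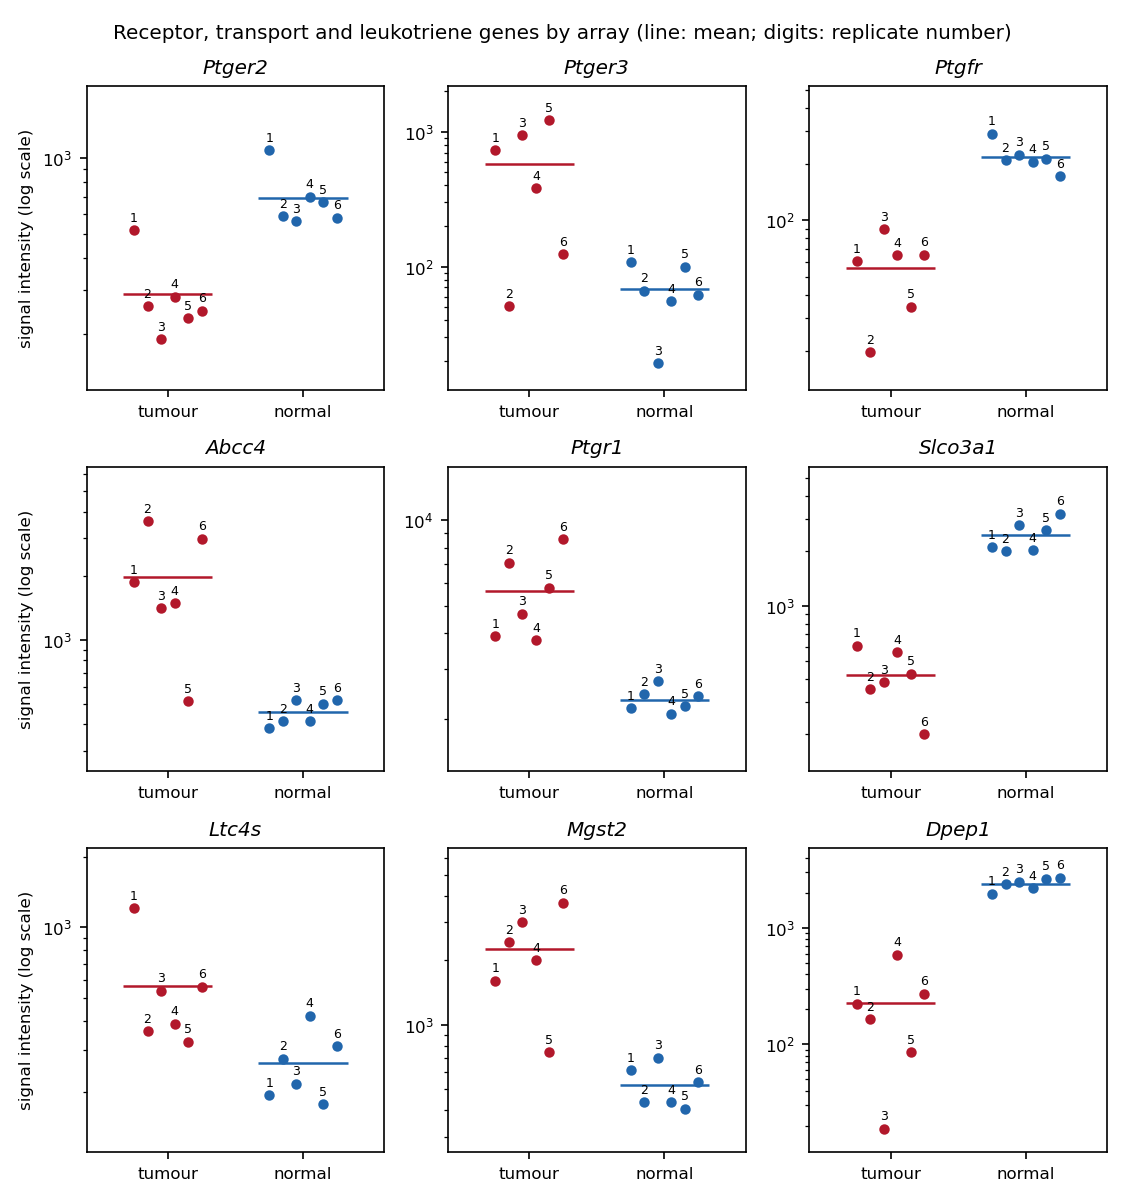
Signal intensity (log scale) per array of 9 receptor, transport and leukotriene genes past the threshold, tumours at left and normal lungs at right, with replicate numbers and group means. Ptger2, Ptgfr, Slco3a1 and Dpep1 are below all normal lungs in every tumour, and Ptger3 is near normal in tumours 2 and 6.

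Several cell type marker lists differed between tumours and normal lungs, as several of these genes did. In RNA of whole tissue, fewer cells of a type and less RNA per cell cannot be told apart. Over all genes 12.2% rose and 17.5% fell, against which the marker counts stand. All 10 endothelial, 7 smooth muscle, 7 cardiac muscle and 5 club cell markers fell in tumours. So did 6 of 8 fibroblast, 6 of 7 type I cell, 6 of 7 lymphocyte and 4 of 6 mesothelial markers. Endothelial markers summed to 4334 to 12341 in tumours and 56491 to 76747 in normal lungs. Fibroblast markers summed to 4780 to 21766 in tumours and 61990 to 78499 in normal lungs, and smooth muscle markers to 2995 to 8337 in tumours and 15553 to 27803 in normal lungs. Club cell markers summed to 22828 to 78187 in tumours and 134283 to 193657 in normal lungs, and type I markers to 24497 to 51465 in tumours and 95275 to 115626 in normal lungs. The tumours thus had lower levels of stromal, club cell, type I and lymphocyte lists as well as of Hpgd, Slco2a1 and Ptgis, and the part of these cells in those differences was not tested. The collagens Col1a1 and Col3a1 were the 2 fibroblast markers that did not pass, with differences of 0.95 and 0.65.

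Between tumours, the fibroblast mean was highest in tumour 4 and lowest in tumour 3, at 10.3 and 7.44 (log2). These tumours are also the extremes of Hpgd on its brighter probe set. The club cell mean (13.34 and 10.85) and the cardiac muscle mean (8.26 and 5.38) had the same extremes. The endothelial mean was likewise highest in tumour 4 (10.05) but lowest in tumour 6 (8.56), where Hpgd was second highest and Slco2a1 and Ptgis were highest. Smooth muscle (6.97), lymphocyte (6.53) and mesothelial (4.96) means were lowest in tumour 3. They were highest in tumours 2 (8.53), 2 (7.69) and 6 (7.46). The mesothelial value of tumour 6 rested on Msln, which gave 12120 of its summed signal of 12436. In normal lungs Msln was at most 591. Upk3b, Lrrn4, Gpm6a and Rspo1 were at most 62.5, 79.7, 400 and 87.4 in tumours, below every normal lung. The type I mean was highest in tumour 1 (11.94) and lowest in tumour 2 (10.78). On the dimmer Hpgd probe set tumour 6 was highest (57.2) and tumour 1 lowest (2.71), with tumours 3 and 4 at 23.4 and 24.9. Relative to the normal mean, tumour 6 was at -3.79 for Hpgd, -3.82 for the endothelial list, -2.23 for the fibroblast list and -2.70 for the smooth muscle list (log2). Tumour 3 was at -6.47 for Hpgd, -3.33 for the endothelial list, -4.34 for the fibroblast list and -3.59 for the smooth muscle list.

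Beside those shares of all genes, alveolar macrophage markers rose in 4 of 8 cases and fell in 0, with summed signals of 12759 to 65659 in tumours and 10107 to 18974 in normal lungs. Tumour 1 had the highest alveolar macrophage sum and also the highest Alox5, Tbxas1 and Ltc4s of the tumours. Tumour 2 had the lowest such sum and the lowest Alox5, but Tbxas1 was lowest in tumour 3 (272) and Ltc4s in tumour 5 (326). Of 9 markers of other macrophages and monocytes, 4 rose and 2 fell, and their sum was highest in tumour 2, at 26823. The part of macrophages in the levels of Alox5, Tbxas1 and Ltc4s was not tested. Platelet markers fell in 5 of 7 cases, with summed signals of 2501 to 20792 in tumours and 3205 to 10359 in normal lungs. Pf4 differed in the other direction without passing (1.41 ± 0.52), and it gave 19582 of the 20792 in tumour 4. The upper end of the tumour sums thus rests on Pf4. Mast cell markers fell in 1 of 8 cases (Kit, which other lung cells also express). Cpa3 and Mcpt4, which define mast cells, were dim in both groups, with means of 20.6 and 13.9 in tumours and 33.3 and 20.3 in normal lungs. Hdc alone in this list differed upwards, without passing (0.81 ± 0.61). Its means were 4569 in tumours and 1894 in normal lungs.

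**Figure D5:**
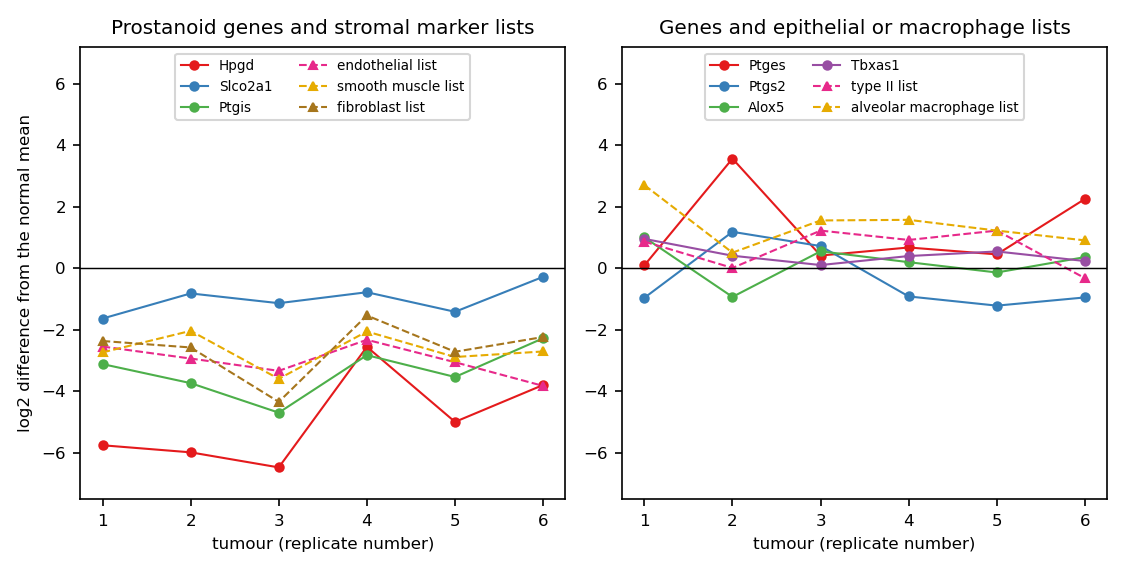
Log2 difference of each tumour from the normal mean for 7 of the measured genes (circles, solid lines) and for means of 5 marker lists (triangles, dashed lines); lines only join values of one item, and tumours have no order. Hpgd lies below all 3 stromal lists in tumours 1 to 5 and close to the endothelial list in tumour 6, and Ptges peaks in tumours 2 and 6.

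The genes with the pattern most like Hpgd were Tcf21, Ogn and Tmem100. Likeness was the mean absolute difference of centred log2 values over the 12 arrays, taken against 11264 genes above the median signal. It was 0.45 for Tcf21, a transcription factor of lung fibroblasts, 0.50 for Ogn, a small matrix proteoglycan, and 0.52 for Tmem100, an endothelial membrane protein. The median gene was at 2.47. The tumour to normal differences of the 3 were -4.52, -4.92 and -5.43, near the -4.92 of Hpgd. Likeness covers both groups, so a gene without such a difference is far from Hpgd by construction. The median distance therefore does not show how special these genes are. For Slco2a1 the nearest genes were Glis2 (0.17), Riox1 (0.18) and Ifngr1 (0.19), with the median gene at 0.62. Their differences, -1.09, -1.13 and -0.98, were likewise near the -1.01 of Slco2a1. For Alox5 they were Pfkfb4 (0.19), Kdm7a (0.25) and Gpcpd1 (0.27), with the median gene at 0.61.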

How the data were processed

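The authors deposited 1 signal intensity per probe set and array, and the submitters' processing notes name MAS5, of which the version is not given in the sources used here. Per the labels' protocols, total RNA was amplified with a one-cycle protocol and labelled with biotin. The authors' scaling (the same 2% trimmed mean on every array) was kept. Of 45101 probe sets, 64 array controls were left out and 45037 tested. Symbols came from GEO's platform annotation; probe sets with several symbols were not used.

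Values were transformed as log2(signal + 16) and compared, 6 arrays against 6 with no covariate, by limma 3.58.1 (R 4.3.3; eBayes with an intensity trend), with Benjamini-Hochberg adjustment over all probe sets, two-sided. The fit was tested on simulated data. Figures used Python 3.11.15, pandas 2.3.3 and matplotlib 3.10.9.

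The genes, the pathway and marker lists, the tests and the alternatives were chosen with earlier results of these data known. The tumour to normal difference of the 10 genes is therefore described, not tested. Other pathway genes are named where they passed the threshold, or with their values where their list is described. The likeness rule took the 3 nearest genes each. Alternatives were the offset (1 and 64), quantile and median scaling, a filter on dim probe sets, no trend, array weights, a replicate block, the mean or the most variable probe set of a gene, leaving out arrays, and Eif2s3y as a covariate. Leaving out tumours 2 and 6 was added after seeing the data. The pathway lists' unmeasured genes and Ptgs1 were not analysed here.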

Additional observations from a re-analysis of the deposited data

Results flagged for a closer look

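In 3 of 52 groups of 6 arrays, taken over the 9 measured genes and the 17 other pathway genes past the threshold, 1 array lay far from the rest on the log2 scale by Dixon's test; chance gives about 1 in 20. Alox5 in normal lung 1 was 1007, with the next normal lung at 418. Ptger2 in normal lung 1 was 1073, with the next normal lung at 703; the fall of Ptger2 did not depend on that array, with an adjusted p of at most 0.0103 (limma) over 27 alternatives. Pla2g6 in tumour 5 was 1792, with the next tumour at 930.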

How the results depend on the processing

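In 27 alternative settings no call of the 17 other pathway genes changed direction, and 10 of them passed the threshold in every setting that gave them a value (26 for Cysltr2); Mgst3, Aloxe3, Ltc4s, Ptger3, Tbxa2r, Alox12 and Pla2g6 each lost it at least once. The count of other pathway genes that rose, 8 as reported, was 5 with Eif2s3y as a covariate and 5 with tumours 1, 2, 3 and 5 left out; the cause was not tested. The mean difference of Hpgd and Slco2a1, -2.96 as reported, was -1.97 with that covariate and -1.85 without those tumours. The median difference of the 9 genes, 0.18 as reported, was -0.15 with all probe sets of a gene averaged and -0.35 with the probe set of largest SD, so it has no settled sign. Leaving out 1 array at a time gave -3.22 to -2.80 for Hpgd and Slco2a1, and -0.50 to -0.27 for the synthesis mean with Ptgis in it. It gave -0.05 to 0.33 for the median of the 9, 6 to 8 rises and 8 or 9 falls. Quantile normalization and median centring moved the median difference of all probe sets to 0.05 and 0.13, against -0.06, and the share of calls that were higher to 50.6% and 61.9%, against 41.9%; the directions of the 9 genes held under both. With the replicate number as a block 7 genes rose and 8 fell. Same-numbered arrays deviated together by a correlation of at most 0.02, and 0 of 6 tumours correlated best with their own number. These values gave no sign of pairing by number. They cannot exclude it, since a tumour and a normal lung of 1 animal need not deviate together. By the sex genes, tumours 1, 2, 3 and 5 came from other animals than the normal lungs. Dim genes such as Ptgds and Cysltr2 are limited by the added 16, and detection calls were not used here. With dim probe sets left out there was no value for Ptgds, Cysltr2, the synthesis mean or the median of the 9.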
